A study of Homo sapiens with 16 samples.

Results

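The clusters described here are the distal intragenic binding regions of AIB1, 195 of the 897 distinct regions in 4 deposited cluster lists. They were chosen by position: each overlapped the body of a protein-coding gene (GENCODE release 44 on GRCh37/hg19), lay over 5 kb from the transcription start site (TSS) of every protein-coding transcript, and did not overlap 3 dense regions on chromosomes 8, 10 and 17 that hold 260 clusters. Outside those regions, 275 further clusters were distal intergenic and 167 were TSS-proximal. AIB1 was mapped by chromatin immunoprecipitation and sequencing (ChIP-seq) in the non-tumorigenic mammary epithelial cell line MCF10A, in MCFDCIS, a relative of it that serves as a model of ductal carcinoma in situ, and in a D4 counterpart of either line. The series title ties D4 to the AIB1 isoform AIB1D4, and the labels do not say how the D4 lines were made or whether each is 1 clone. A group consisted of 3 ChIP samples with 1 input, giving 16 samples over 4 groups. All groups were grown in medium with horse serum, EGF, hydrocortisone, cholera toxin and insulin and crosslinked with formaldehyde, per the labels' protocols.

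Each group is represented by 1 list with no value per sample, so no replicate error could be given and D4 and parental lists could not be tested against each other. Depth is unknown. The sample descriptions cite lists named after the other cell line, so the lists are called MCF10A-named and MCFDCIS-named, and none was assigned to a line. The lists held 490 (MCF10A-named parental), 138 (MCF10A-named D4), 651 (MCFDCIS-named parental) and 99 (MCFDCIS-named D4) clusters. The score printed for a cluster is the value the authors deposited. Its definition is unstated, and it serves only to rank clusters inside 1 list. The lowest scores of the 4 lists, in the same order, were 6.995, 7.008, 7.002 and 7.111. Any 2 clusters of the 4 lists were either identical in coordinates or disjoint (0 partial overlaps), so presence in a list means an identical entry.

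AIB1, encoded by NCOA3, is a coactivator of the p160 family. It does not read DNA itself: nuclear receptors and other transcription factors bind their own motifs and recruit it, and it brings in histone acetyltransferases. Enhancers often lie inside genes, mostly in introns, and may act on the host gene or on another gene. Among the factors whose motifs were searched, AP-1 is a dimer of FOS and JUN proteins that acts downstream of growth factors, TEAD proteins are the DNA-binding partners of the Hippo pathway effectors YAP and TAZ, and the glucocorticoid receptor binds the glucocorticoid response element (GRE) when a ligand such as hydrocortisone is present.

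The central 100 bp of the following clusters are shown because they are the best-ranked ones with an AP-1 or GRE match close to their centre, together with XDH and ERCC1, the clusters with an AP-1 match there that were in 3 lists. Capitals mark AP-1 matches (TGACTCA or TGAGTCA) and GRE matches (the core ACANNNTGT with a G 2 letters before it and a C 2 letters after it). All are GRCh37, plus strand, and the name is that of the host gene.
PRKCH, chr14:61933006-61933105: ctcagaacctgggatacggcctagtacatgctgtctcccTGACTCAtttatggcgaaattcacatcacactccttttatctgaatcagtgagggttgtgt
MCF2L2, chr3:183088731-183088830: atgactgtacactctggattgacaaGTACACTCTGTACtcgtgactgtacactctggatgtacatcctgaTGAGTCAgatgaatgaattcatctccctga
SRRM2, chr16:2819881-2819980: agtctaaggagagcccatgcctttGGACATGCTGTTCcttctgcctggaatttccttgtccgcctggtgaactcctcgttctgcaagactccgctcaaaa
TBC1D8, chr2:101737181-101737280: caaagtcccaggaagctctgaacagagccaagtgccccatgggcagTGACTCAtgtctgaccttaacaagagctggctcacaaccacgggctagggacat
ZBTB16, chr11:114033656-114033755: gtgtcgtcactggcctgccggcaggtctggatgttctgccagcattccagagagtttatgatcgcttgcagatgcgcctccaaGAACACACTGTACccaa
CLIP2, chr7:73727181-73727280: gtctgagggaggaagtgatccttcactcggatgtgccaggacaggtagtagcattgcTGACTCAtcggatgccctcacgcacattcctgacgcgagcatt
SSH1, chr12:109232256-109232355: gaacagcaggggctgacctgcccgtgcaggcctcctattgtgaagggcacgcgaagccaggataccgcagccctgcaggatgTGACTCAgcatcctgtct
PDSS2, chr6:107568556-107568655: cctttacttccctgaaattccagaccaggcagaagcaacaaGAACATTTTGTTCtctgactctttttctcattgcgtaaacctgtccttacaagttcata
XDH, chr2:31613356-31613455: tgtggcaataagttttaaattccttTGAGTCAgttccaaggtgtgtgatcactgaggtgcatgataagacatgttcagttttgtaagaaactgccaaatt
ERCC1, chr19:45959356-45959455: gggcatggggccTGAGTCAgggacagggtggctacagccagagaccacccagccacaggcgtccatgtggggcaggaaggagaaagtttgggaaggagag
The MCF2L2 sequence holds both kinds of match. The PDSS2 match has the GAACA half-site on both strands.

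Most distal intragenic clusters were listed for parental cells. The MCF10A-named parental list held 101 of them, the MCFDCIS-named parental list 165, the MCF10A-named D4 list 24 and the MCFDCIS-named D4 list 19. As a share of each list outside the dense regions these were 29.2% (exact 95% interval 24.5 to 34.3), 31.9% (27.9 to 36.1), 27.3% (18.3 to 37.8) and 24.1% (15.1 to 35.0), so the intervals of all 4 lists overlap. All intervals of shares here are exact Clopper-Pearson intervals, which cover the number of clusters only.

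**Figure D1:**
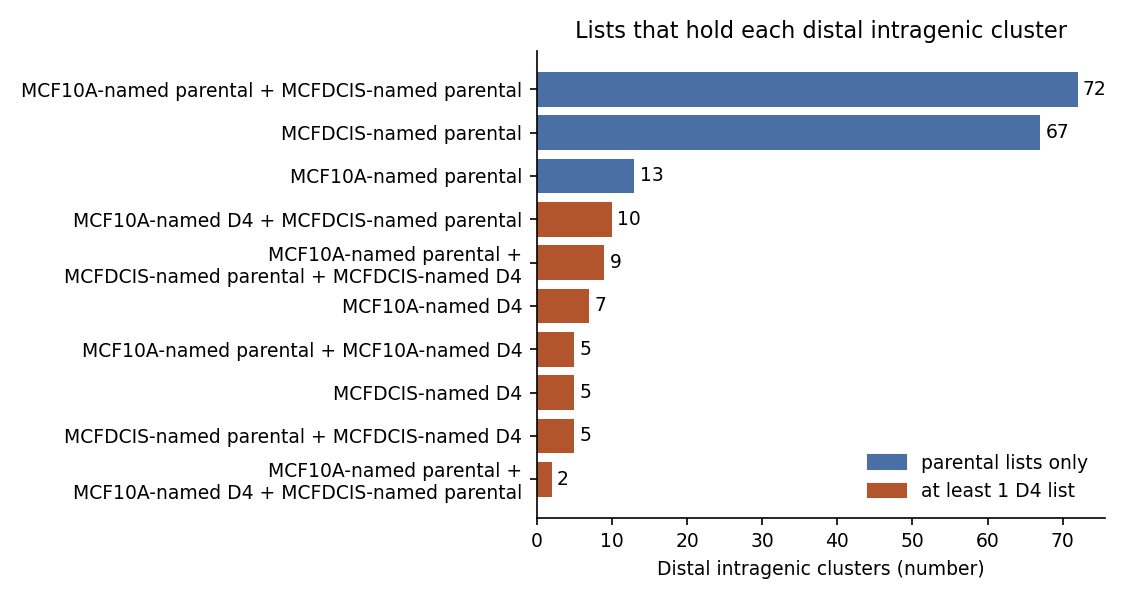
Number of distal intragenic clusters (horizontal axis) in each exact combination of the 4 lists (vertical axis), with combinations of parental lists in blue and those with a D4 list in orange. The 72 clusters shared by both parental lists alone and the 67 of the MCFDCIS-named parental list alone are the most frequent.

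Many of the clusters were shared by the parental lists, and none by the D4 lists. Both parental lists held 83 of the 195 clusters (42.6%, 35.5 to 49.8), against 34.2% of all 897 clusters. The 897 include the 260 clusters of the dense regions, which the rule left out. Outside those regions the share was 48.7% of distal intergenic and 30.5% of TSS-proximal clusters, so 42.6% lay between the 2 other classes. Those 83 were 82.2% of the 101 in the MCF10A-named parental list and 50.3% of the 165 in the MCFDCIS-named one. A D4 list held 43 clusters (22.1%, 16.4 to 28.5), against 25.4% of all 897 clusters. No distal intragenic cluster was in both D4 lists (0 of 195, exact interval up to 1.87%), which is near the 4 of 275 distal intergenic (1.45%) and 3 of 167 TSS-proximal clusters (1.80%) that were. Of the 43, 31 were also in a parental list and 12 were not. In the MCFDCIS-named D4 list 14 of 19 (73.7%, 48.8 to 90.9) were also in the parental list of the same name. In the MCF10A-named D4 list 7 of 24 (29.2%, 12.6 to 51.1) were in its own parental list, and 12 of 24 were in the MCFDCIS-named parental list. Among distal intergenic clusters the shares in the parental list of the same name were 22 of 27 (81.5%) and 15 of 39 (38.5%), and among TSS-proximal ones 21 of 33 (63.6%) and 13 of 25 (52.0%), so the order of the 2 names was the same in all 3 classes. These shares were not tested against each other, since the sets share lists.

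The share in a D4 list was close to that of distal intergenic clusters. It was 22.1% (43 of 195) against 22.5% (62 of 275), a difference of -0.49 points (95% interval -8.13 to 7.14; Fisher's exact test over clusters, two-sided, adjusted p = 0.911 over 4 tests). TSS-proximal clusters were in a D4 list more often, at 32.9% (55 of 167), a difference of -10.9 points (-20.1 to -1.68; exact test, p = 0.0241, adjusted p = 0.0482). Presence in both parental lists was 42.6% against 48.7% of intergenic clusters (-6.16 points, -15.3 to 2.95; exact test, adjusted p = 0.254) and 30.5% of TSS-proximal ones (12.03 points, 2.18 to 21.9; adjusted p = 0.0482). Neither of the 2 calls against TSS-proximal clusters was firm: each lost its threshold under 5 of 7 other settings, while keeping its direction. These tests compare sets of regions, not replicate cells.

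In 3 lists there were 11 clusters (5.64%), near the 6.55% of intergenic and 5.39% of TSS-proximal clusters. None was in all 4, against 3 of 275 (1.09%) and 2 of 167 (1.20%). All 11 were in both parental lists. XDH (chr2:31613351-31613460, intron 6 of the gene for xanthine dehydrogenase) and ERCC1 (chr19:45959151-45959660, a DNA repair endonuclease subunit gene) were joined by the MCF10A-named D4 list. In that list they ranked 129 and 118 of 138, with scores of 7.19 and 7.48, near its lowest score of 7.008. The other 9 were joined by the MCFDCIS-named D4 list and lay in C1orf116, CTDSPL, SH3TC2, RXRA, ABLIM1, KRT86, GPR176, MYO1E and SRRM2. Among them were genes of the actin system, ABLIM1 (an actin-binding LIM protein) and MYO1E (an unconventional myosin), and the nuclear receptor gene RXRA, which encodes a heterodimer partner of many nuclear receptors. The ABLIM1 cluster (chr10:116484201-116484310) had scores of 50.7, 29.1 and 21.9 in the MCF10A-named parental, MCFDCIS-named parental and MCFDCIS-named D4 lists, at ranks 15 of 490, 220 of 651 and 4 of 99. The SRRM2 cluster (chr16:2819851-2820010, intron 12 of a splicing factor gene) had scores of 57.6, 59.98 and 10.1 in the same 3 lists, at ranks 10, 67 and 36. The SH3TC2 cluster, 1360 bp wide, had ranks 20, 3 and 16, and its centre lay outside every protein-coding transcript of that gene. The KRT86 cluster, in the hair keratin locus, had ranks 38, 35 and 49. The RXRA cluster, 10 bp wide, had ranks 48, 521 and 38. A high rank in 1 list was thus not always matched in another. Over the 83 clusters in both parental lists, the Spearman rank correlation of the 2 scores was 0.17, given as a description only, since the clusters were selected on being listed in both.

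The best-ranked distal intragenic clusters came from the parental lists. The PRKCH cluster (chr14:61932951-61933160) ranked 1 of 490 in the MCF10A-named parental list with a score of 96.5, and 37 of 651 in the MCFDCIS-named one with 81.5. PRKCH encodes protein kinase C eta, an isoform of epithelia. The MCF2L2 cluster (chr3:183088651-183088910, intron 3 of a guanine nucleotide exchange factor gene) ranked 11 (score 54.9) and 2 (166.8) in these lists. Next in the MCFDCIS-named parental list stood SH3TC2 at rank 3 (162.5) and CYP1B1 at rank 7 (140.8). CYP1B1 encodes a cytochrome P450 that metabolises estrogens and is a target of the aryl hydrocarbon receptor. In the MCF10A-named parental list VAV2, another exchange factor gene, followed PRKCH at rank 7 (68.0). Scores are not compared between lists. Within each parental list the clusters scored above the list as a whole: the median was 16.9 against 12.1 over the whole MCF10A-named list, and 24.8 against 20.1 over the MCFDCIS-named one. In the D4 lists the medians were 8.69 against 8.38 and 10.0 against 9.46. The whole lists include these clusters themselves and those of the dense regions, 144 of the 490 and 133 of the 651 parental entries. No median was taken for distal intergenic or TSS-proximal clusters. The higher medians are thus not shown to be particular to distal intragenic clusters.

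The best-ranked D4 entries were in part also high in a parental list, as for ABLIM1 and SH3TC2, and in part not. TTC7A, whose product helps to place phosphatidylinositol 4-kinase at the plasma membrane, held the best of the MCF10A-named D4 list (chr2:47194401-47194510, rank 7 of 138, score 18.8) and was in no other list. DNAJC3, an endoplasmic reticulum chaperone gene, followed at rank 8 (18.1), and was rank 102 in the MCFDCIS-named parental list. TENM2, which encodes a teneurin, a cell adhesion protein known from synapses, stood at rank 12 (16.5). In the MCFDCIS-named D4 list ABLIM1 was followed by NBPF1 at rank 8 (13.6), C1orf116 and TLN2 at rank 12 (10.997 each), then CTDSPL, PXK and SH3TC2 at rank 16 (10.8 each). TLN2 encodes talin 2, which links integrins to actin. The NBPF1 cluster belongs to 2 clusters, both in NBPF1, whose central 100 bp have a second match elsewhere in the genome, so reads there may come from a copy. The central 500 bp of the 24 in the MCF10A-named D4 list had a median GC content of 40.2%, against 47.6%, 45.8% and 47.6% in the MCF10A-named parental, MCFDCIS-named parental and MCFDCIS-named D4 lists. Over gene-body windows the median was 40%. Whether GC content has a part in which clusters a list holds was not tested.

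5 motifs were more frequent at the centres than in the flanks. AP-1 was matched in the central 500 bp of 60 of 195 clusters (30.8%, 24.4 to 37.8) and in 38 of 390 equally wide windows at a distance of 5 kb on both sides (9.74%), with adjusted p = 8.56e-09 by Fisher's exact test. TEAD (GGAATG followed by T or C) was matched in 58 centres (29.7%) and 41 flanks (10.5%), with an exact test's adjusted p = 1.12e-07. RUNX (TGTGGTT or TGCGGTT), the site of factors such as RUNX1 in mammary epithelium, was in 43 centres (22.1%) and 37 flanks (9.49%, exact test, adjusted p = 1.83e-04). GRE was in 20 centres (10.3%, 6.38 to 15.4) and 4 flanks (1.03%), with an exact test's adjusted p = 1.52e-06 and the steepest ratio of the 5. CEBP (TTGCGCAA, TTGCACAA or TTGTGCAA) was in 14 centres (7.18%) and 8 flanks (2.05%, exact test, adjusted p = 0.0104). P-values were adjusted over 12 motifs, matches were sought on both strands, and all 5 calls held in each of 10 other settings. The test pooled the windows and did not use the pairing of each centre with its own flanks. It also treated windows as independent, although 24 clusters lay closer than 10 kb to another. Over all 897 clusters, the 260 of the dense regions included, the central share was 25.1% for AP-1 and 7.02% for GRE. Outside the dense regions it was 30.9% and 9.45% in distal intergenic clusters, and 23.9% and 8.38% in TSS-proximal ones.

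Gene-body windows over 5 kb from any TSS gave a second background. Of 411943 such windows of 500 bp, on the chromosomes that hold a cluster (1 to 19 and X), 7.45% held AP-1, 12.3% TEAD, 10.2% RUNX, 0.639% GRE and 1.76% CEBP. No test was run against these windows. The other 7 motifs did not pass against the flanks. The p53 family half-site, which p63 of basal cells also reads, was in 18.5% of centres and 13.3% of flanks (exact test, adjusted p = 0.223). Forkhead (TGTTTAC) was in 19 centres (9.74%) and 24 flanks (6.15%, exact test, adjusted p = 0.225). The letters AGATAA, read by GATA factors such as GATA3 of luminal cells, were in 29.2% of centres and 30.5% of flanks (exact test, adjusted p = 0.93). KLF/SP (GGGCGGG) was in 12 centres (6.15%), in 4.87% of flanks and in 1.96% of gene-body windows. NF-kB was in 16 centres (8.21%), in 7.44% of flanks and in 5.81% of gene-body windows. For ETS (CCGGAAG) these were 3 centres (1.54%), 1.54% and 1.09%. The estrogen response element (GGTCA, 3 letters, TGACC) was in none of 195 centres and none of 390 flanks. Matches of different motifs were counted separately even where they overlapped, and a match is a description of sequence, not of a bound factor.

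**Figure D2:**
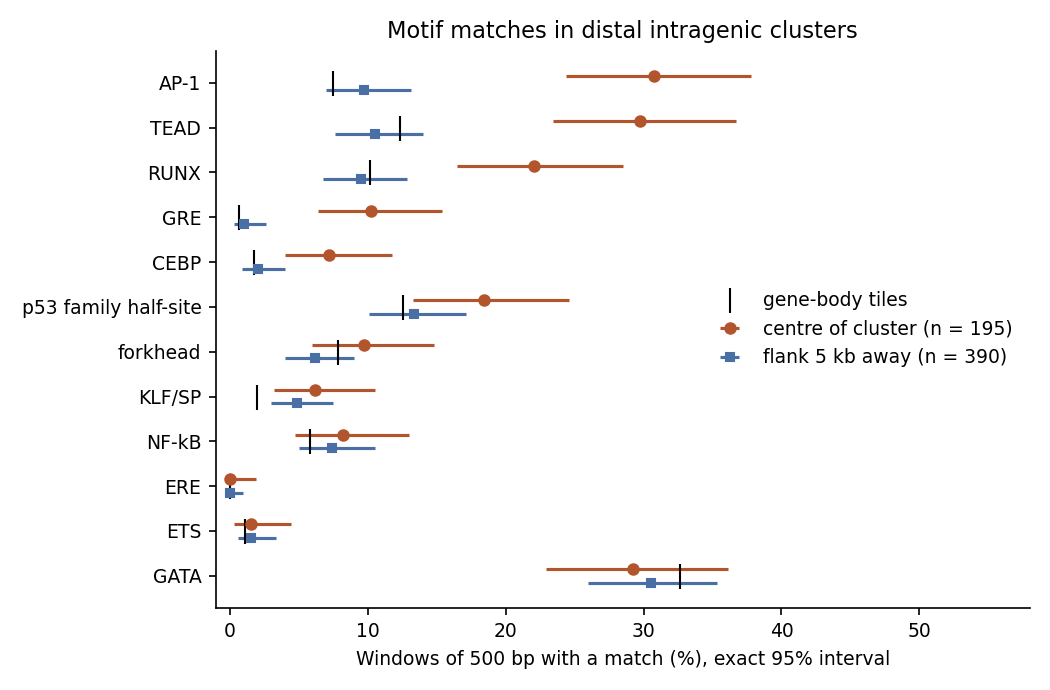
Percent of 500 bp windows with a match (horizontal axis) for 12 motifs (vertical axis) in cluster centres (circles), in flanks 5 kb away (squares) and in gene-body windows (black ticks), with exact 95% intervals. AP-1 stands at 30.8% in centres and 9.74% in flanks, and GRE at 10.3% and 1.03%.

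The matches sat close to the cluster centres. In bins of 100 bp, the 2 bins that meet at the centre had AP-1 matches in 19 and 26 clusters, and the 18 bins farther out to 1 kb had 1 to 10. For GRE the central bins had 11 and 7 clusters and the others 0 or 1. Within 50 bp of the centre there were AP-1 matches in 28 clusters, TEAD in 28, GRE in 15, RUNX in 14 and CEBP in 10. Of the motifs that did not pass, the p53 family half-site was there in 15 clusters and GATA in 14. Forkhead was in 6, NF-kB in 5, ETS in 2, KLF/SP in 1 and the estrogen response element in 0. These counts alone thus do not set GRE and RUNX apart. Of the 60 clusters with AP-1, 43 had the nearest match within 100 bp, and 9 had at least 2 matches.

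**Figure D3:**
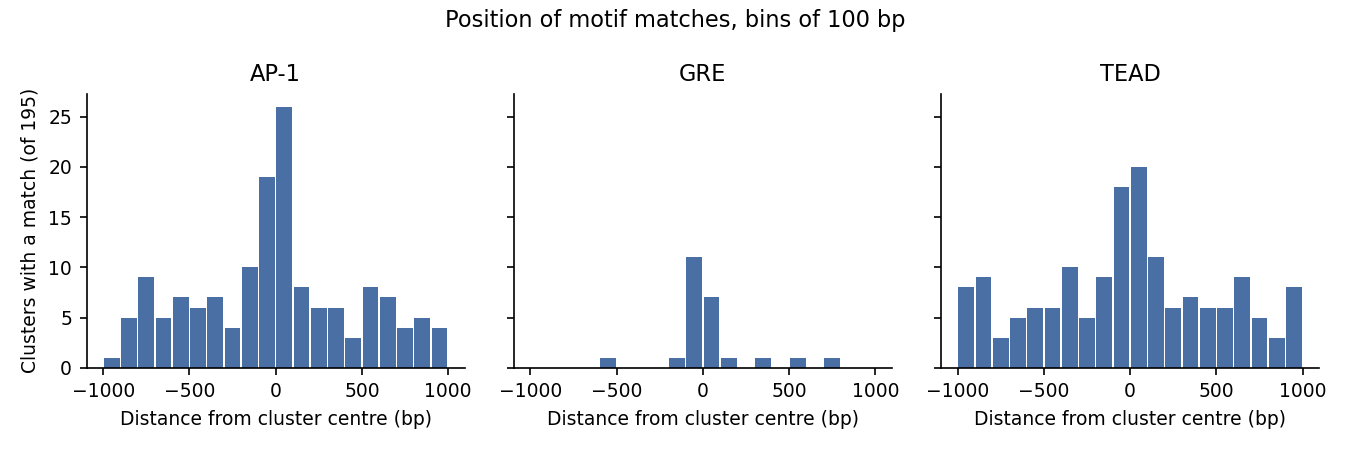
Number of the 195 clusters with a match (vertical axis) by distance of the match from the cluster centre in bp (horizontal axis, bins of 100 bp), for AP-1, GRE and TEAD. The bins on either side of the centre hold 19 and 26 clusters for AP-1 and 11 and 7 for GRE.

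The hosts of clusters with a GRE match included 2 genes of the glucocorticoid response list, FKBP5, which encodes an inhibitor chaperone of the glucocorticoid receptor and is a classical target of it, and ZBTB16, a zinc finger repressor gene that glucocorticoids induce in many tissues. The FKBP5 cluster (chr6:35569801-35569810, an intron) was in the MCFDCIS-named parental list (rank 103, score 47.3) and the MCFDCIS-named D4 list (rank 38, score 10.0), and its match GAACACCCTGTTC has the GAACA half-site on both strands. ZBTB16 held 3 clusters within 8.3 kb, each in both parental lists and none in a D4 list. The cluster at chr11:114033651-114033760 ranked 20 of 651 and 123 of 490, that at chr11:114030901-114030960 ranked 72 and 87, and that at chr11:114025351-114025460 ranked 359 and 107. The first 2 had a GRE match (GAACACACTGTAC and GTACAGTATGTAC) and the third had none. PDSS2, whose product acts in coenzyme Q synthesis, carried GAACATTTTGTTC and ranked 43 of 651 (MCFDCIS-named parental) and 57 of 138 (MCF10A-named D4). SLC7A7, an amino acid transporter gene, carried GAACATTCTGTAC at its centre and was in both parental lists. Of 18 GRE matches listed with their letters, 17 lay within 100 bp of the centre, 12 had a GAACA half-site on at least 1 strand and 3, PDSS2, PKD1L1 and FKBP5, on both.

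The sequences on chromosome 8 are not shown, so 2 of the 20 clusters with GRE are left out of those counts. GRE and AP-1 stood together in 7 clusters, in MCF2L2, CBLB, ERGIC1, FAM234B, RBKS, RNF145 and SPIDR. The product of the 2 shares would give 3.16% of clusters, and 3.59% had both. TEAD and AP-1 stood together in 20 clusters (10.3%, against a product of 9.15%) and TEAD and GRE in 9 (4.62%, against 3.05%). The pairings are given as counts, with no test. Of the 195 clusters 63 had none of the 5 motifs, 80 had 1, 41 had 2 and 11 had 3.

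GRE matches were more frequent among the better-scored clusters in both parental lists, in counts that were not tested. Among the clusters in the MCF10A-named parental list, GRE was matched in 13 of the 50 above their median score (26.0%, 14.6 to 40.3) and in 2 of the 51 others (3.92%, 0.479 to 13.5). In the MCFDCIS-named parental list the counts were 14 of 82 (17.1%, 9.66 to 27.0) and 4 of 83 (4.82%, 1.33 to 11.9). AP-1 was in 17 of 50 and 17 of 51 in the first list, and in 28 of 82 (34.1%) and 24 of 83 (28.9%) in the second. The GRE intervals of the 2 score groups overlap in the MCFDCIS-named list, and those of AP-1 overlap in both. The lists share 83 clusters and are not independent. GRE was also matched in 2 of 59 clusters in a first intron (3.39%, 0.413 to 11.7) and in 17 of 123 in later introns (13.8%, 8.26 to 21.2). AP-1 was in 20 of 59 (33.9%) and 36 of 123 (29.3%).

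**Figure D4:**
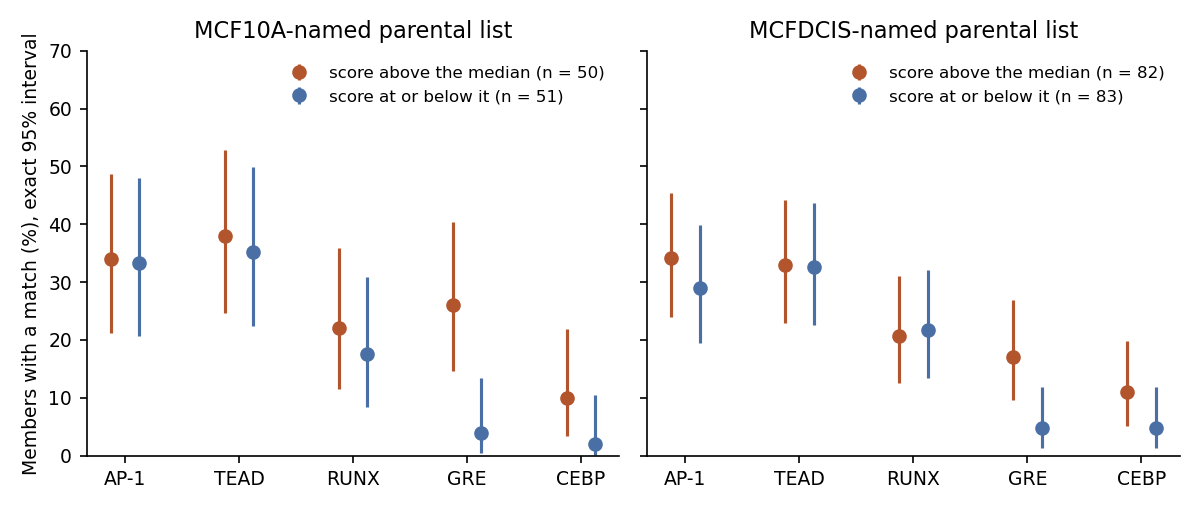
Percent of distal intragenic clusters with a motif match (vertical axis, exact 95% intervals) for 5 motifs (horizontal axis), split at the median score of these clusters in each parental list. GRE stands at 26.0% above and 3.92% below the median in the MCF10A-named list, while AP-1 stands at 34.0% and 33.3%.

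Split by list name, AP-1 was matched in 34 of 101 MCF10A-named parental (33.7%), 8 of 24 MCF10A-named D4 (33.3%), 52 of 165 MCFDCIS-named parental (31.5%) and 3 of 19 MCFDCIS-named D4 entries (15.8%, 3.38 to 39.6). GRE was in 15, 1, 18 and 2 of these. TEAD was in 8 of the 43 clusters of any D4 list (18.6%, 8.39 to 33.4) and in 50 of the 152 in none (32.9%, 25.5 to 41.0). With 43 clusters in D4 lists, the intervals of AP-1 (25.6%, 13.5 to 41.2, against 32.2%, 24.9 to 40.3), GRE (6.98% against 11.2%) and TEAD all overlap.

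No motif share differed past the threshold from that of intergenic clusters, whereas 4 differed from TSS-proximal ones. Against distal intergenic clusters AP-1 was in 30.8% and 30.9% (-0.140 points, 95% interval -8.61 to 8.33) and GRE in 10.3% and 9.45% (0.802 points, -4.68 to 6.29), and the differences of the other 10 motifs did not pass either. The adjustment was over 24 tests. By the same exact test KLF/SP, a motif of GC-rich promoters, was in 6.15% of distal intragenic and 26.3% of TSS-proximal centres (-20.2 points, -27.7 to -12.7, adjusted p = 3.38e-06). ETS was in 1.54% and 10.8% (exact test, adjusted p = 0.00208), NF-kB in 8.21% and 20.4% (adjusted p = 0.00938), and GATA in 29.2% and 16.8% (adjusted p = 0.0367). Median GC content moved with these differences, at 45.4% in distal intragenic, 45.4% in intergenic and 52.6% in TSS-proximal centres, and its part in them was not tested. The GATA call was lost in 7 of 9 other settings and the NF-kB call in 5, ETS in 2 and KLF/SP in 1, the central 200 bp, where none of the 4 passed.

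Nearly all clusters lay in introns. By the longest protein-coding transcript that holds the centre, 182 of 195 centres were intronic (93.3%, 88.9 to 96.4), against 91.9% of gene-body windows, so that share is near the background. In coding exons there were 4 centres, in 3' UTRs 4, in 5' UTRs none, and 5 lay outside every protein-coding transcript of the host. First introns held 59 of the 182 intronic centres (32.4%, 25.7 to 39.7), against 22.1% of intronic windows, and the fourth and later introns held 67 (36.8%, 29.8 to 44.3), against 50.5%. By the Ensembl canonical transcript, an alternative chosen after the values were seen, first introns held 43 of 158 (27.2%, 20.4 to 34.9), against 21.0% of windows. Intron numbers depend on the transcript: the 3 PRKCH clusters are in intron 1 of the longest transcript and intron 9 of the canonical one. The centres of CYP1B1, ABLIM1 and ERCC1 lay outside the canonical transcripts of these genes. Of all 195 centres, 97 were in the part of the gene nearer to its start.

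The clusters were narrow and, by the rule, over 5 kb from every protein-coding TSS. Their median width was 60 bp (10 to 8610), and 68 were 10 bp wide. Distal intergenic and TSS-proximal clusters also had a median width of 60 bp. With the TSS of every transcript type counted, 138 of the 195 lay over 5 kb from one. The median distance to the nearest protein-coding TSS was 28.9 kb, and 414 kb was the longest. In 168 of 195 (86.2%) the nearest TSS was that of a host gene. The 3 clusters nearest to the limit of 5 kb lay in TGFBI at 5.024 kb, TNFAIP8 at 5.071 kb and PDE6A at 5.146 kb. Just short of it and left out were clusters near EML2 at 4.888 kb, SH3GL1 at 4.879 kb and FGF1 at 4.527 kb.

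Host genes were long, and few held several clusters. The 195 clusters overlapped 171 protein-coding genes, 1.16% of the 14710 genes with any sequence over 5 kb from a TSS. The median host was 159 kb long, counted once per cluster, against 41.4 kb over such genes, each counted once. The 2 medians are thus not on a like basis, since a longer gene offers more sequence for a cluster to lie in. How much of the difference this or the limit of 5 kb brings was not measured. With 1 host per cluster, 142 genes had 1 cluster, 13 had 2 and 9 had 3, among them PRKCH, ZBTB16, ERGIC1, SH3TC2, ACTN4, RAD51B, PDE4DIP and TENM2. The spacing within them differed. The 3 PRKCH clusters spanned 10.6 kb, all were in both parental lists and none in a D4 list, with ranks 1, 130 and 288 of 490 in the MCF10A-named list. The 3 RAD51B clusters, in a gene of homologous recombination, spanned 537 kb, and 1 of them was in the MCFDCIS-named D4 list alone (rank 92 of 99). ACTN4, which encodes the actin crosslinker alpha-actinin 4, held 3 clusters of 10 bp in its first intron, of which 1 was in the MCFDCIS-named D4 list alone, 1 in the MCFDCIS-named parental list alone and 1 in both parental lists.

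The gene lists are described by counts, beside the 1.16% of all genes that host a cluster. They were chosen with earlier results of these data known, so a share above that background cannot be read as enrichment. Of the actin cytoskeleton and myosin list 4 of 24 eligible genes were hosts, among them ABLIM1, ACTN4 and MYO1E, with 8 clusters or 4.10% of the 195, in genes that make up 0.349% of the gene-body windows. The glucocorticoid response list had 2 of 18 (FKBP5, ZBTB16), with 4 clusters (2.05%, against 0.0881%). The basal and squamous epithelial list had TP63, the master factor of basal epithelium, and the desmosome gene PKP1, 2 of 15. The TP63 cluster (chr3:189551851-189552010) ranked 145 of 490 and 275 of 651 in the parental lists. The luminal list had ESR1, the estrogen receptor gene, 1 of 16, and ESR1 with RXRA made 2 of 23 nuclear receptor genes. The receptor tyrosine kinase and MAPK list had the EGF receptor ligand genes EREG and TGFA, 2 of 25. The EREG cluster (chr4:75240351-75240510) had AP-1 and TEAD matches and ranked 115 of 490 and 98 of 651. The TGF-beta list had TGFBI and LTBP2, 2 of 25. PRKCH of the protein kinase C list (1 of 22), WWC1 of the Hippo list (1 of 21) and BACH2 of the AP-1 list (1 of 11) stood alone. Lists of integrin, laminin and hemidesmosome genes (22 eligible) and of coactivators and corepressors (20) had no host. For cell types outside these lines, the blood cell list had none of 19 and the neuronal list 1 of 20.

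The clusters were unevenly spread over chromosome arms. Arm 5q held 36 of 195 (18.5%, 13.3 to 24.6), against 4.59% of gene-body windows. Arm 1q held 22 (11.3%, against 4.001%), 3q held 20 (10.3%, against 4.10%), 14q held 17 (8.72%, against 3.19%) and 19q held 14 (7.18%, against 0.980%). These 5 arms, picked after the counts were seen, held 109 clusters (55.9%, 48.6 to 63.0), against 16.8% of windows and 39.6% of the 275 distal intergenic clusters. On 14q the intergenic share was only 1.45% (4 of 275), and on 5q it was 14.9%. Arms 2q and 7q held 2 and 1 clusters, at 5.73% and 4.24% of windows, and none lay on X. AP-1 was in 36 of 109 clusters on the 5 arms (33.0%, 24.3 to 42.7) and 24 of 86 on the others (27.9%, 18.8 to 38.6). GRE was in 7 of 109 (6.42%, 2.62 to 12.8) and 13 of 86 (15.1%, 8.30 to 24.5). The share in a D4 list was 21.1% and 23.3%. DNA copy number was not analysed here, and its part in the counts by arm was not tested.

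**Figure D5:**
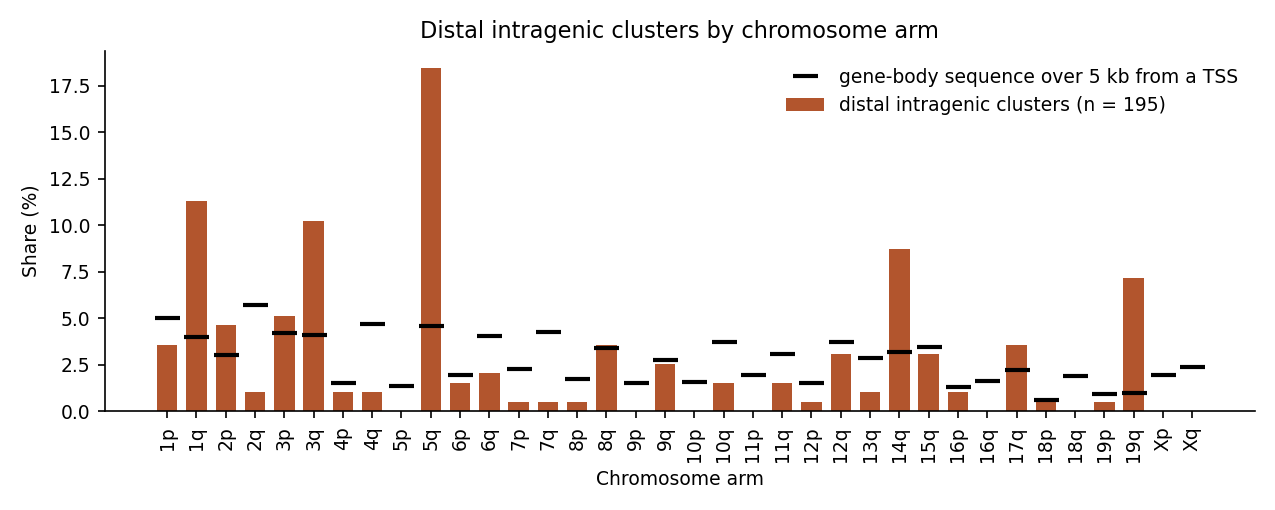
Share in percent (vertical axis) of the 195 distal intragenic clusters (bars) and of gene-body windows over 5 kb from a TSS (black lines) on each chromosome arm (horizontal axis), for arms with a cluster or over 1% of windows. Arm 5q stands at 18.5% of clusters and 4.59% of windows, and 19q at 7.18% and 0.980%.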

How the data were processed

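AIB1 ChIP-seq of 4 groups (3 ChIP and 1 input sample each) was used as 4 deposited cluster lists, 1 per group. The score of each cluster is the authors' deposited value, and per the series' design text ChIP was normalized to cell lysate input. The build was hg19 (GRCh37), per the submitters' processing notes. Aligner, caller, threshold and the pooling of samples: not given in the sources used here. Members and gene lists were chosen with earlier results of these data known.

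Clusters were classed against GENCODE release 44 lifted to GRCh37 (overlap of at least 1 bp). Exact motif matches were sought in the central 500 bp, in flanks 5 kb away and in every 5th gene-body tile of 500 bp. Sets of clusters were compared by Fisher's exact test, two-sided, with Benjamini-Hochberg adjustment and a threshold of 0.05; intervals of shares are exact (95%) and differences have normal-approximation intervals. Second matches (95% identity over 90 bp) were sought with minimap2 2.31. Tests used SciPy 1.17.1 under Python 3.11.15, tables pandas 2.3.3 with numpy 2.4.6, sequences samtools 1.23.1 with pysam 0.24.0, and figures matplotlib 3.10.9; the motif test was tested on simulated sequence. Named were the 8 best-scored members per list, members in 3 lists, hosts with 3 members, up to 6 hosts per gene list, up to 15 members with GRE and those with GRE and AP-1, and 3 on either side of the 5 kb limit. CLIP2 and SSH1 are shown by the rule for sequences. Chromosomes 20 to 22 and Y hold no cluster in the lists and were left out of the background. A few genes and 1 gene list are not reported here.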

Additional observations from a re-analysis of the deposited data

How the results depend on the processing

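Of 231 values under other settings, 187 were classed as the same, and all 5 motif calls at centres against flanks held in each of 10 settings. For a difference, the same means an unchanged direction and side of the threshold. For a count or the first-intron share it means only a value near the main one. The share in a D4 list no longer passed against TSS-proximal clusters with the TSS limit at 10 kb (-9.96 points), dense regions kept (-7.34), 1 cluster per host gene (-8.08), clusters of at least 60 bp (-9.53) or no second match (-10.1). Presence in both parental lists no longer passed against them with the TSS limit at 2 kb (8.80 points) or 10 kb (6.55), dense regions kept (8.25), clusters above the median score (14.4) or no second match (12.3). Against intergenic clusters it passed with the 2 kb limit (-10.4 points, exact test, adjusted p = 0.0426; range over the settings 0.0426 to 1.0) and was 0.253 points above the median score. The 4 motifs past the threshold against TSS-proximal clusters became 2 (10 kb limit), 1 (above the median score), 2 (at least 60 bp) and 0 (central 200 bp), and 3 with the 2 kb limit, dense regions kept, 1 cluster per host gene or no second match. Clusters of at least 60 bp numbered 127. The cause was not tested.

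Differences that did not pass changed sign. The D4 share against intergenic clusters was 2.21 (2 kb limit), 3.69 (dense regions kept), 1.68 (1 cluster per host gene) and 1.14 points (no second match). AP-1 against intergenic clusters was 1.28 (2 kb), 0.262 (10 kb), 1.22 (1 cluster per host gene) and 0.876 (central 200 bp). Against flanks, NF-kB was -0.379 (above the median score) and -0.513 (flanks 2 kb away), and GATA was 0.787 (at least 60 bp) and 3.59 (flanks 2 kb away). No paired analysis was possible because each group has only 1 list, and leaving out a replicate was not possible for the same reason. Depth is unknown, so only the number of clusters sets the intervals.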
